A study of Mus musculus with 4 samples.

Results

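The expression of 32 proliferation genes was followed through the cell classes of the mouse mid-colon, in tissue from control mice and from mice given dextran sulfate sodium (DSS). The genes were taken by symbol from the feature lists, and all 32 were found among 55450 listed genes. Of these, 14 belong to DNA replication in S phase and 18 to G2 phase and mitosis (G2/M). Each member had transcripts in every library. The tissue was mid-colon of specific pathogen-free mice aged 7 weeks, and the labels used here name no strain. Controls had clean drinking water. The treated group received 3% DSS, a polysaccharide that damages the colonic epithelium, in its water for 2 days. Single cells were captured in droplets and read at the 3′ end of transcripts, with 2 control and 2 DSS libraries, called control 1, control 2, DSS 1 and DSS 2. The labels do not state that libraries of a group came from separate animals, so that the p-values measure the spread between libraries, which may be technical.

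Proliferating cells copy their DNA in S phase and divide after G2. The S members load and drive the replicative helicase (Mcm2 to Mcm7, Cdc6), limit that loading to once per cycle (Gmnn), clamp the polymerase to DNA (Pcna), make deoxynucleotides (Rrm1, Rrm2, Tyms), remove uracil from DNA (Ung) or remodel chromatin (Hells). The G2/M members comprise the mitotic kinase Cdk1 with its cyclins Ccna2, Ccnb1 and Ccnb2, the Aurora kinases Aurka and Aurkb with Birc5 and Tpx2, and the spindle checkpoint genes Bub1 and Bub1b. They also comprise the kinetochore genes Cenpe and Cenpf, the spindle motors Kif11 and Kif23, the ubiquitin ligase partners Cdc20 and Ube2c, topoisomerase Top2a, which untangles DNA, and Mki67, which coats mitotic chromosomes. In the colon, stem and transit-amplifying cells at the crypt base divide to renew the epithelium, and most differentiated epithelial cells have left the cycle. E2F factors act on S phase promoters, and the CHR element together with CCAAT boxes is a known feature of G2/M promoters.

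The promoters of the members differed in these letters, and 4 of them are shown because their genes fell in the progenitor-like cells described further on. The 250 bases before the start site were read from RefSeq (build GRCm38.p6), where 27 of the 32 members had an entry. Aurkb, Tpx2, Mcm4, Gmnn and Ccna2 were not matched. Both strands were searched for the E2F words TTTGGCGC, TTTCCCGC, TTTGCCGC and TTTCGCGC, for the CHR words TTTGAA and TTCGAA, and for CCAAT. E2F words lay in 5 of 12 S promoters and 1 of 15 G2/M promoters, against 1.86% of 32851 promoters. CHR words lay in 2 of 12 S promoters and 8 of 15 G2/M promoters, against 17.15% of all. CCAAT lay in 8 of 12 and 14 of 15, against 33.85% of all. Both a CHR word and CCAAT lay in 8 of 15 G2/M promoters and in 6.02% of all promoters. Capitals mark E2F words in Mcm6 (chr1:128359706-128359955, minus strand) and Mcm5 (chr8:75109259-75109508, plus strand), where neighbouring matches on opposite strands overlap and form 1 run. Capitals mark CHR words and CCAAT, or its reverse complement ATTGG, in Bub1b (chr2:118597961-118598210, plus strand) and Mki67 (chr7:135716380-135716629, minus strand).
Mcm6: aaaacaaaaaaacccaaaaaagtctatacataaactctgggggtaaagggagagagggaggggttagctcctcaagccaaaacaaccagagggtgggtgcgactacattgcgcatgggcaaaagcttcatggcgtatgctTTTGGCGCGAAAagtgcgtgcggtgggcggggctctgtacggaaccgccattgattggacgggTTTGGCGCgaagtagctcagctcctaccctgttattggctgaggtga
Mcm5: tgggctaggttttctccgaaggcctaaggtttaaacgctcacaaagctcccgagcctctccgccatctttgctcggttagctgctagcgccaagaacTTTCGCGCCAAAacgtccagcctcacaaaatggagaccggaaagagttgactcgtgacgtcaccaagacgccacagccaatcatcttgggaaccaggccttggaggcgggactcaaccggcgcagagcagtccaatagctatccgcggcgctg
Bub1b: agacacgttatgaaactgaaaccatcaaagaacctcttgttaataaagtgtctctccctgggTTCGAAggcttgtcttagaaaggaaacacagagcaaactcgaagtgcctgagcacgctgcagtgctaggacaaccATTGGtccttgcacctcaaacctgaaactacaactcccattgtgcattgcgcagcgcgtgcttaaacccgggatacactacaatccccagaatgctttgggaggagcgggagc
Mki67: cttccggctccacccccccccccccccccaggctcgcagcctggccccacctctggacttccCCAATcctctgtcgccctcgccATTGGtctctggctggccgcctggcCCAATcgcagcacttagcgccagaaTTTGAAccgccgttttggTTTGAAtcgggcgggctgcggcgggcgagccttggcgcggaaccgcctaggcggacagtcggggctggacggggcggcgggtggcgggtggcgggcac
The Mcm6 matches began 110, 106 and 47 bases before the start site, and those of Mcm5 began 153 and 149 bases before it. In Bub1b the CHR word began 188 and the CCAAT box 113 bases before the start. In Mki67 the CHR words began 116 and 98 bases before the start, with CCAAT boxes at 188, 166 and 141. A match describes these letters and is no measurement of binding.

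The deposited counts summed to 101051573 and 101834659 unique molecular identifiers (UMIs) in the control libraries and 108941875 and 109472082 in the DSS libraries. After filtering, 42448 cells remained, with a median depth of 4731 to 6297.5 UMIs per cell and library. The libraries differed in cell makeup. Epithelial cells were 57.9% and 55.7% of control cells and 12.5% and 31.4% of DSS cells, and immune cells were 9.60% and 17.7% against 47.6% and 23.0%. Members contributed 87315 and 58634 UMIs in the controls and 38877 and 46836 after DSS. Pairs of libraries shared 36 to 52 barcodes. Class names such as progenitor-like stand for clusters that carried at least 3 marker genes of that type.

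The progenitor-like class was checked against its defining markers. The crypt stem cell genes Lgr5, Ascl2 and Axin2 were present in the controls and near 0 in DSS. Lgr5 had 817 and 555 UMIs in the control libraries and 1 and 0 UMIs in the DSS libraries. Ascl2 had 1148 and 807 UMIs against 1 and 2, and Axin2 had 1516 and 931 against 3 and 2. The summed level of the 15 progenitor markers was 2355 and 3934 CPM (UMIs of a gene scaled to a fixed total per class and library) in the controls and 602 and 977 CPM in DSS, and that of 14 colonocyte markers was 1166 and 1237 CPM against 4358 and 3968 CPM. Of 105 immune markers, 78, 78, 87 and 83 were detected in control 1, control 2, DSS 1 and DSS 2, with summed levels of 993.8, 2108, 4374 and 2320 CPM. Ptprc, the pan-leukocyte surface gene, stood at 2.60 and 3.44 CPM in the controls and 15.9 and 5.46 CPM in DSS. The part of these cells in the results that follow was not tested.

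At a finer clustering, the class split by library. The cluster led by Ascl2, Lgr5 and Nox1 held 97.5% and 93.5% of the control cells of the class and 22.9% and 10.9% of the DSS cells. In DSS 2, 86.3% of the class fell in a cluster led by the antimicrobial lectins Reg3b and Reg3g, which stayed unnamed. In DSS 1, 69.7% fell in a colonocyte-like cluster led by Cyp2f2 and Slc37a2. Between groups, the name therefore stands for 1 cluster whose control cells carried Lgr5, Ascl2 and Axin2 and whose DSS cells had almost none, and a difference between its control and DSS cells is also a difference between these finer clusters.

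The first question was which cells cycled. A cell was called S-positive or G2/M-positive when at least 3 members of that part had a UMI after every cell was thinned to 1500 UMIs, so that deep and shallow cells could be compared. Cells with fewer UMIs were left out, which kept 8444, 9040, 10815 and 10495 cells of control 1, control 2, DSS 1 and DSS 2. Intervals given with such shares are exact Clopper-Pearson 95% intervals and cover counting error only. In both control libraries, progenitor-like cells held the highest shares. In control 1, 179 of 1872 progenitor-like cells were S-positive (9.56%, interval 8.27 to 11.0%), and 292 were G2/M-positive (15.6%, 13.98 to 17.3%). In control 2, 110 of 592 were S-positive (18.6%, 15.5 to 22.0%) and 130 were G2/M-positive (22.0%, 18.7 to 25.5%). Goblet-like cells followed in the epithelium, with S shares of 1.43% and 3.24% and G2/M shares of 4.30% and 8.23% in the controls. Colonocyte-like cells lay at 0% and 0.201% for S and at 0.0479% and 0.401% for G2/M.

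Outside the epithelium, positive cells were found among immune cells in all 4 libraries. T or innate lymphoid-like cells had control S shares of 3.08% and 2.78% and G2/M shares of 2.05% and 2.02%. Mononuclear phagocyte-like cells, which join macrophage-like, monocyte-like and dendritic-like clusters, had S shares of 2.20% and 1.92% and G2/M shares of 5.73% and 4.81%. The depth limit kept unequal parts of these classes. It kept 89.3%, 50.6%, 96.3% and 85.7% of T or innate lymphoid-like cells in control 1, control 2, DSS 1 and DSS 2. Of mononuclear phagocyte-like cells it kept 85.3%, 62.2%, 91.9% and 83.0%. Plasma-like cells had G2/M shares of 7.76% and 5.44% in the controls with S shares of 1.72% and 2.07%. Fibroblast-like cells stayed between 0.130% and 0.410% for S and between 0.0599% and 0.326% for G2/M over the 4 libraries. Enteric glia-like cells, which should hold few of these transcripts, had 0 S-positive cells in every library and 1 G2/M-positive cell of 70 in control 1. In control 2, with 0 of 29 cells positive for either part, the limit taken for a count of 0 (3 counts) is 10.3%, and the exact interval reaches 11.9%. Without thinning, glia-like cells reached S shares of 3.10% to 8.82% and G2/M shares of 0 to 0.775%, at median depths of 1576 to 3293 UMIs. B-like, tuft-like, blood and lymphatic endothelial-like and interstitial cell of Cajal-like classes had under 30 cells in control 2 and were not compared. After thinning, B-like cells had 2 S-positive cells of 103 in control 1, and 7 S-positive and 6 G2/M-positive of 633 in DSS 1. Blood endothelial-like cells had 2 S-positive of 80 in control 1 and 1 of 176 in DSS 1. Every other count in these classes was 0.

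**Figure D1:**
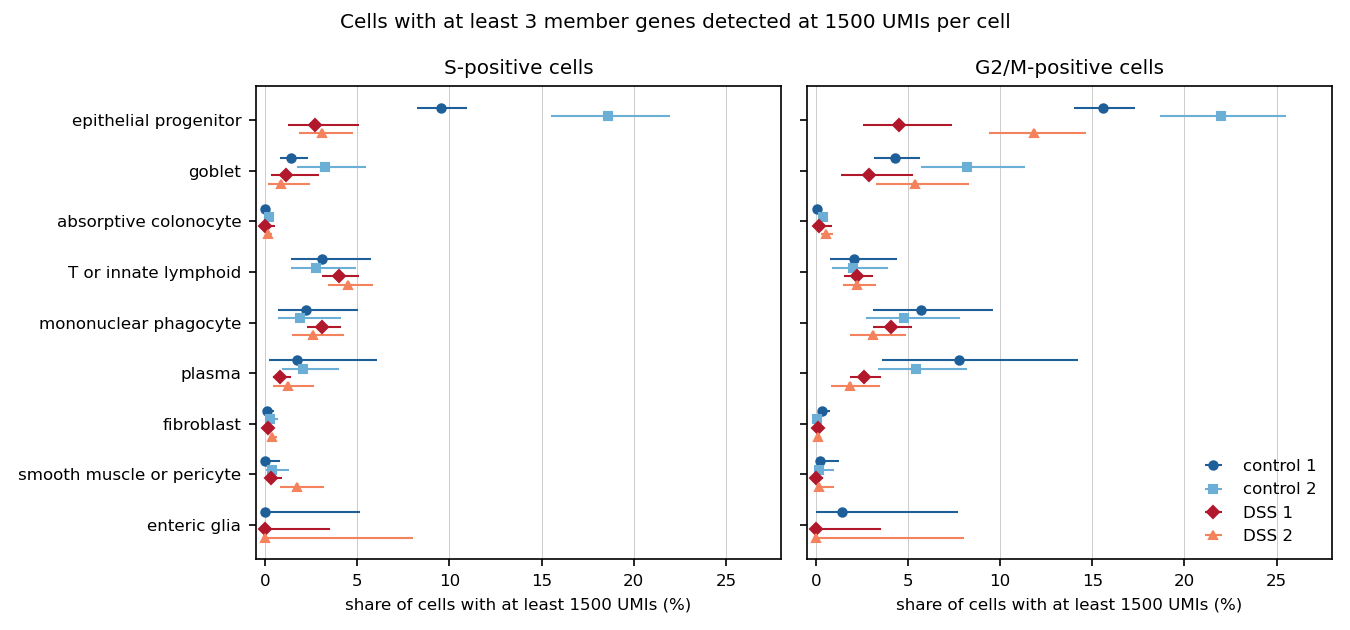
Share of S-positive (left) and G2/M-positive (right) cells in percent by cell class after thinning to 1500 UMIs, with 1 point per library, bars for exact 95% counting intervals, and classes under 30 cells in a library left out for that library. Progenitor-like cells stand highest in the controls, at 9.56% and 18.6% for S, and lie at 2.72% and 3.08% in the DSS libraries.

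Taken as a whole, the S-positive cells were mostly epithelial in the controls and mostly immune in the DSS libraries. The epithelial part of the S-positive cells was 89.9% and 80.5% for the controls against 8.72% and 21.0% after DSS. Immune cells were 8.29% and 15.2% of S-positive cells in the controls and 85.9% and 58.9% in DSS. T or innate lymphoid-like cells alone went from 4.15% and 6.71% to 42.3% and 41.9%. Among G2/M-positive cells, the epithelial part was 90.7% and 79.7% in the controls, 15.4% in DSS 1 and 64.6% in DSS 2. The 2 DSS libraries thus lay on different sides of an even split for G2/M, and both control libraries lay above both. These percentages move with the number of captured cells of each class, and how well each class came through dissociation was not tested. For Mki67, epithelial cells gave 95.1%, 79.3%, 21.1% and 68.5% of all UMIs in control 1, control 2, DSS 1 and DSS 2, and progenitor-like cells alone gave 76.4%, 55.1%, 12.2% and 43.7%.

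**Figure D2:**
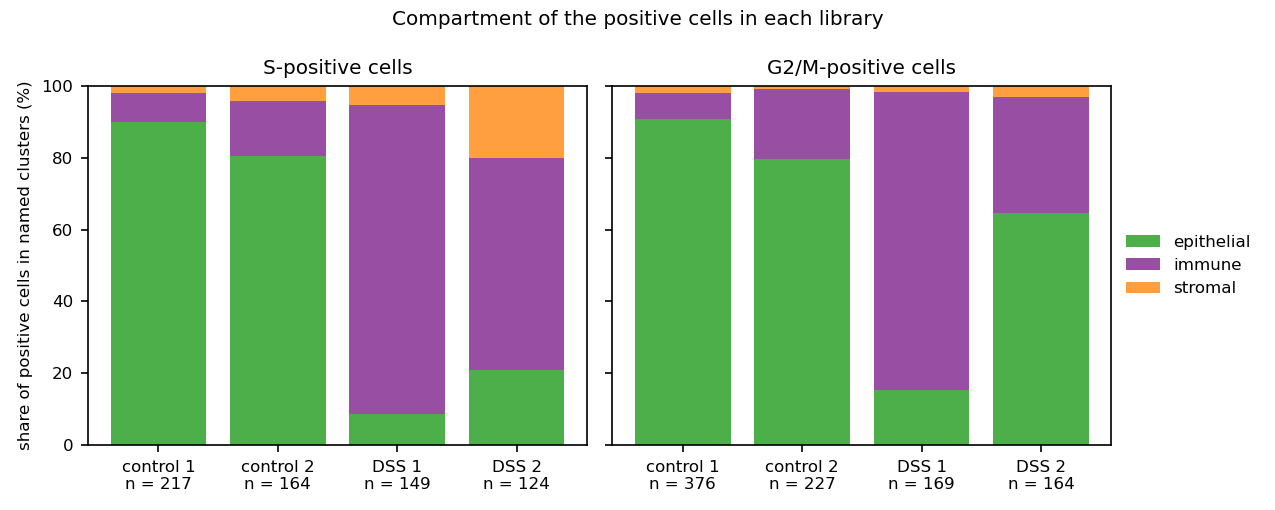
Makeup of the S-positive and G2/M-positive cells of each library by compartment, in percent of positive cells. Epithelial cells are 89.9% and 80.5% of S-positive cells in the controls and 8.72% and 21.0% in DSS.

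Single members were less even than the combined calls. After thinning, and over libraries with at least 30 such cells of a class, all 18 G2/M members had their highest mean share of cells with a UMI in progenitor-like cells, and so had 9 of the 14 S members. For Mki67, the mean over libraries was 13.1% in progenitor-like, 7.96% in plasma-like, 7.86% in mononuclear phagocyte-like, 5.52% in goblet-like, 3.73% in T or innate lymphoid-like and 0.471% in fibroblast-like cells. Top2a stood at 10.5% in progenitor-like, 4.90% in T or innate lymphoid-like, 4.53% in mononuclear phagocyte-like, 4.33% in plasma-like, 4.14% in goblet-like and 0.647% in fibroblast-like cells, so that its second class was not that of Mki67. The lowest G2/M member in progenitor-like cells was the checkpoint kinase Bub1 at 1.10%. Pcna did not separate the classes: it ran from 5.96% in plasma-like to 18.9% in mononuclear phagocyte-like cells and stood at 13.4% in glia-like cells, as high as the 13.4% of progenitor-like cells. Rrm1, the large subunit of ribonucleotide reductase, was highest in smooth muscle or pericyte-like cells at 17.1%, where Mki67 stood at 0.690%. Rrm1 there split by library number, with 5.90% and 6.43% in the libraries numbered 1 (control, then DSS) and 23.2% and 32.8% in those numbered 2. Its annotated gene shares 1016 bases on the same strand with the listed gene Gm45399, and whether the counting assigned reads of 1 to the other is not given in the sources used here. In all, 10 members overlap another listed gene, 5 of them on the same strand. Mcm2 and Mcm4 were highest in T or innate lymphoid-like cells (3.96% and 5.58%), and the uracil glycosylase Ung in goblet-like cells (3.36%). Cells with a UMI of Pcna or Rrm1 were thus also found in classes with few G2/M-positive cells.

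**Figure D3:**
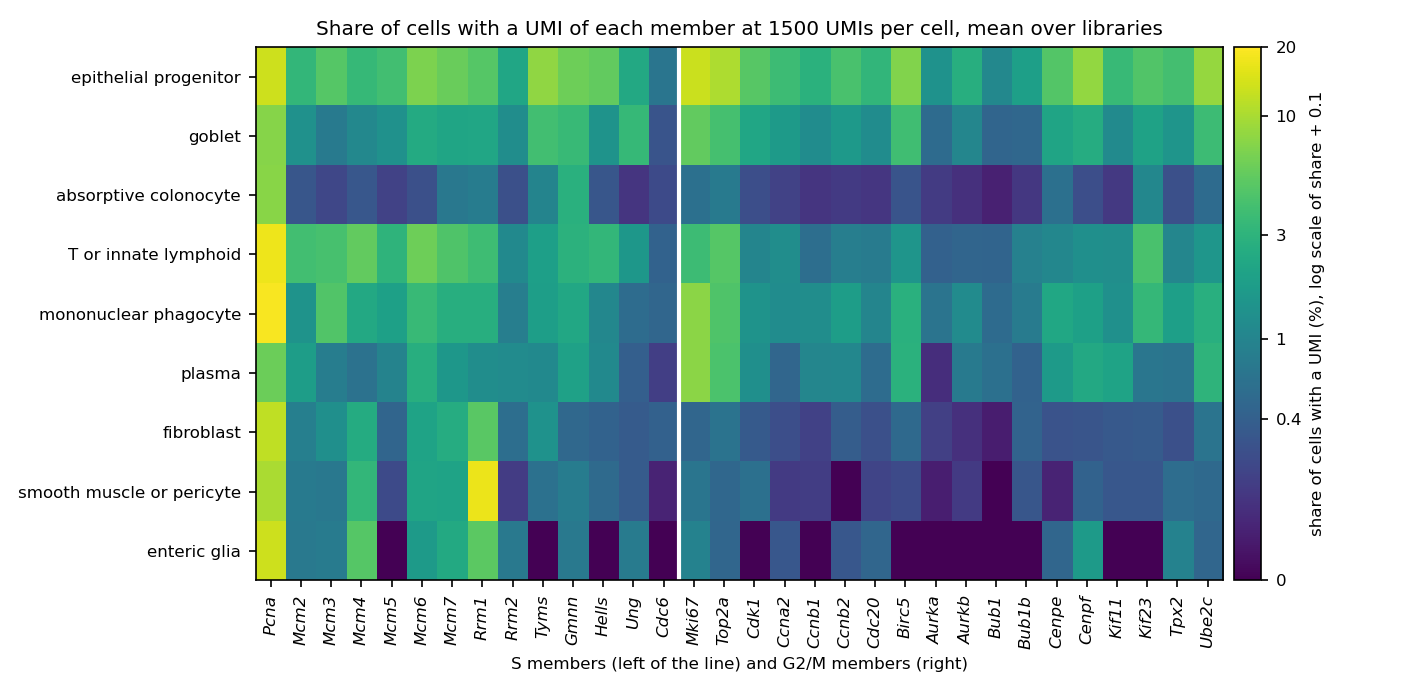
Share of cells with at least 1 UMI of each member after thinning to 1500 UMIs, in percent on a logarithmic colour scale of share + 0.1, as the mean over libraries with at least 30 cells, by member and cell class. Mki67 reaches 13.1% in progenitor-like cells, and Pcna is broad, from 5.96% to 18.9%.

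The second question was whether the shares differed after DSS. In the cluster called progenitor-like, in whose DSS cells Lgr5 and Ascl2 were near 0, the S-positive share fell from 14.1% ± 6.38 in control to 2.90% ± 0.258 in DSS (SD, n = 2 libraries). DSS 1 had 9 S-positive cells of 331 (2.72%) and DSS 2 had 19 of 616 (3.08%), both below both controls. The log2 fold change was -2.24 (SE 0.51), with a Benjamini-Hochberg adjusted p of 0.0476 over 21 tests in the edgeR quasi-likelihood fit. The S share of the whole epithelial compartment was 3.78%, 2.40%, 0.907% and 0.733% in control 1, control 2, DSS 1 and DSS 2, and it fell by 1.94 on the log2 scale (SE 0.44, edgeR adjusted p = 0.0476). The compartment holds the progenitor-like cells, so these 2 calls are not independent. Progenitor-like cells were 179 of 195 and 110 of 132 epithelial S-positive cells in control 1 and control 2. In DSS 1 and DSS 2 they were 9 of 13 and 19 of 26. The compartment share also moves with its makeup of classes. No other share passed. Unthinned, 61.7% and 69.4% of control progenitor-like cells and 41.8% and 49.1% of DSS cells were S-positive, and that difference did not pass in edgeR (adjusted p = 0.438), while the DSS cells were deeper, with median depths of 20985 and 17262 UMIs against 15566 and 15583.5. Both calls sat close to the threshold. The compartment lost its call when any 1 library was left out (-2.23 to -1.57), and the progenitor-like cells lost theirs without control 2 (-1.70), DSS 1 (-2.17) or DSS 2 (-2.35).

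The G2/M share of progenitor-like cells was 15.6%, 22.0%, 4.53% and 11.9%, so that the groups did not overlap and DSS 2 lay nearer to the controls than DSS 1 did. Unthinned it was 38.0%, 41.5%, 8.53% and 25.5%. The log2 fold change of the thinned share was -1.15 (SE 0.57, edgeR adjusted p = 0.352). Goblet-like cells showed S shares of 1.16% and 0.852% in DSS against 1.43% and 3.24% in the controls (-1.08, SE 0.69, edgeR adjusted p = 0.352). Their G2/M shares overlapped, at 4.30%, 8.23%, 2.89% and 5.40%. The goblet-like class also changed in makeup. A finer cluster led by Ang4 and Clca1 held 19.4% and 0.461% of the control and 67.4% and 8.59% of the DSS goblet-like cells, and the rest lay almost wholly in a cluster led by Spink4 and Spdef. Within the Spink4 and Spdef cluster, S shares were 1.77%, 3.46%, 2.63% and 0.926% and G2/M shares were 5.09%, 8.40%, 5.26% and 5.56%, and the groups overlapped for both parts. In the Ang4 and Clca1 cluster, 2 of 217, 0 of 1, 4 of 232 and 1 of 28 cells were G2/M-positive. T or innate lymphoid-like cells had higher S shares in DSS, 4.01% and 4.52%, than in the controls (log2 fold change 0.54, SE 0.42, edgeR adjusted p = 0.462). Plasma-like cells had lower G2/M shares in DSS, 2.61% and 1.86% (-1.44, SE 0.32), with an unadjusted edgeR p of 0.0200 and an adjusted p of 0.14. Mononuclear phagocyte-like cells had G2/M shares of 4.07% and 3.13% in DSS (-0.52, SE 0.23, edgeR adjusted p = 0.352) and S shares of 3.12% and 2.61% (0.50, SE 0.49, edgeR adjusted p = 0.537). Without thinning, the G2/M shares were 7.64%, 10.8%, 6.93% and 4.64% in plasma-like and 7.52%, 4.98%, 6.41% and 5.48% in mononuclear phagocyte-like cells, and the S shares were 7.34%, 3.58%, 12.0% and 10.6% in T or innate lymphoid-like cells. The mononuclear phagocyte-like values then overlapped between groups, and the others did not. Median depths were 2541, 1514, 3306 and 2305.5 UMIs in T or innate lymphoid-like and 9551.5, 7955, 14605 and 9570 UMIs in plasma-like cells. The part of depth in the unthinned shares was not tested. In smooth muscle or pericyte-like cells, the thinned S shares were 0%, 0.357%, 0.316% and 1.75% (edgeR adjusted p = 0.352). The high value of DSS 2 sat in the finer cluster led by Pln and Rergl, where 10 of 348 cells were S-positive and 0 were G2/M-positive.

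By finer cluster, the G2/M share in the Reg3b cluster was 11.0% of 627 cells in DSS 2 (interval 8.66 to 13.7%), and in the Cyp2f2 cluster it was 1.11% of 542 cells in DSS 1. Within the Ascl2 and Lgr5 cluster, G2/M shares were 15.9%, 22.2%, 12.7% and 20.8%, and the groups overlapped. The DSS values there rested on 9 of 71 and 11 of 53 cells, with intervals of 5.96 to 22.7% and 10.8 to 34.1%. Its S shares were 9.81%, 19.0%, 5.63% and 1.89%, with 4 and 1 S-positive cells in DSS 1 and DSS 2. At both levels of clustering the S shares of DSS lay below both controls, at the finer level on only 4 and 1 S-positive cells. The G2/M shares overlapped at the finer level. Neither part passed in edgeR there (adjusted p = 0.226 for S and 0.760 for G2/M). These few cells cannot show whether S and G2/M differ.

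For levels of single genes, UMIs were summed per library and class and tested over all genes of the class. In progenitor-like cells, all 32 members were lower in DSS, and for each of the 32 both DSS libraries lay below both controls, as they did for 32.4% of all genes tested. Of the 32, 14 fell in the edgeR test, against 3.77% of 13697 genes tested that fell and 3.13% that rose. The S members counted 11 of 14 and the G2/M members 3 of 18, with median log2 fold changes of -1.58 and -1.21 against -0.01 for all genes. The count was 8 without control 1, 7 without control 2 and 27 without DSS 2.

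Among the helicase genes, Mcm6 had the smallest p. It stood at 67.0 and 98.4 CPM in the controls and at 16.9 and 20.13 CPM after DSS, a log2 fold change of -2.04 (SE 0.22, edgeR adjusted p = 0.00638). Mcm5, whose promoter is printed above beside that of Mcm6, stood at 32.8, 69.3, 11.5 and 13.2 CPM (-1.90, SE 0.31, edgeR adjusted p = 0.0165). For both genes the DSS libraries were close to each other, and the controls differed more. Mcm7 (-1.97), Mcm4 (-1.98), Mcm3 (-1.94) and Mcm2 (-1.38) fell as well, with edgeR adjusted p of 0.00987, 0.0158, 0.0197 and 0.0427. Cdc6, the loader of the helicase, was low throughout, at 5.65, 13.7, 3.04 and 2.07 CPM, and did not pass (edgeR adjusted p = 0.0643). Gmnn, the loading inhibitor, fell from 69.0 and 75.9 CPM to 31.2 and 34.0 CPM (-1.05, edgeR adjusted p = 0.0240).

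Hells, a chromatin remodeler, had the lowest fold change of the members, with 49.8 and 101 CPM in the controls and 16.6 and 14.4 CPM in DSS (-2.14, SE 0.31, edgeR adjusted p = 0.0128). Of the nucleotide genes, Rrm1 fell by 1.35 and Rrm2 by 1.16 on the log2 scale (edgeR adjusted p of 0.0246 and 0.0426). Tyms, thymidylate synthase, stood at 93.1, 104, 36.6 and 57.5 CPM and missed the threshold (-0.97, edgeR adjusted p = 0.0507). Ung fell by 1.21 (edgeR adjusted p = 0.0385). Pcna, the broadest S member across classes, had the smallest difference of the S members, with 118, 195, 70.4 and 92.4 CPM (-0.82, edgeR adjusted p = 0.0982).

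Of the G2/M members, Bub1b, Cenpe and Mki67 passed. Mki67 stood at 194 and 362 CPM in the controls and at 63.9 and 121 CPM in DSS (-1.47, SE 0.35, edgeR adjusted p = 0.0479). Bub1b fell from 24.7 and 31.8 CPM to 5.67 and 11.8 CPM (-1.56, SE 0.31, edgeR adjusted p = 0.0295), and Cenpe from 53.9 and 87.8 CPM to 21.4 and 35.5 CPM (-1.19, edgeR adjusted p = 0.0424). In each of the 3, DSS 1 lay below DSS 2. Top2a stood at 166, 268, 40.4 and 97.0 CPM and missed the threshold (-1.55, edgeR adjusted p = 0.0518). Cdk1 (-1.29), Aurkb (-1.45), Bub1 (-1.40), Cenpf (-1.41), Kif11 (-1.35) and Tpx2 (-1.22) had edgeR adjusted p between 0.0698 and 0.0888. Ube2c, Cdc20, Aurka and Birc5 were the members whose DSS 2 level came nearest to the controls. Ube2c, the ubiquitin-conjugating partner of the anaphase-promoting complex, stood at 181 and 156 CPM in the controls, 36.4 CPM in DSS 1 and 137 CPM in DSS 2 (-0.90, SE 0.50, edgeR adjusted p = 0.308). Cdc20 stood at 48.8, 41.1, 12.7 and 37.5 CPM, Aurka at 17.8, 18.1, 4.98 and 15.6 CPM, and Birc5 at 117, 108, 31.1 and 92.9 CPM. The remaining members Ccna2 (-0.91), Ccnb1 (-0.78), Ccnb2 (-0.95) and Kif23 (-0.82) did not pass either.

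**Figure D4:**
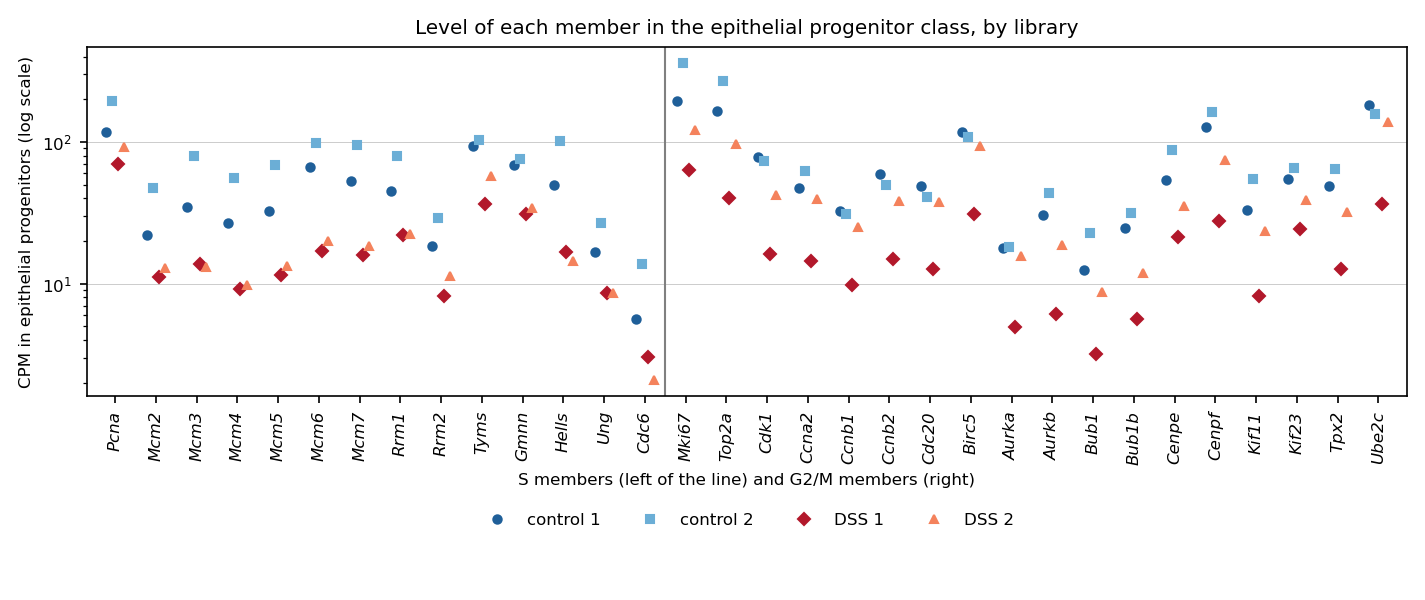
Level of each member in progenitor-like cells in CPM on a log axis, with 1 point per library, S members and G2/M members apart. All 32 members have both DSS points below both control points, and DSS 2 lies nearer to the controls for Ube2c (137 CPM against 156 and 181 CPM).

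In the finer Ascl2 and Lgr5 cluster, 0 of 32 members passed in edgeR, where 0.913% of 12272 genes passed. Unadjusted p was under 0.05 for 8 members, all S members, and for 12.2% of all genes, and DESeq2 was not run on this cluster. All 14 S members had a log2 fold change below 0 there, with a median of -0.99. For Mcm2, Rrm1, Rrm2, Ung and Cdc6 the groups still overlapped. Rrm2 stood at 18.8 and 29.4 CPM in the controls and at 22.7 and 6.03 CPM in DSS, on 30 and 5 UMIs. Mcm6 stood at 68.6 and 101 CPM in the controls and at 42.4 and 14.5 CPM in DSS, on 56 and 12 UMIs. Of the G2/M members, 9 of 18 were lower and the median was 0.05. Mki67 stood at 198, 371, 225 and 250 CPM and Ube2c at 184, 162, 159 and 255 CPM, and in both genes the groups overlapped. Lgr5 in this cluster stood at 26.7 and 55.3 CPM in the controls and at 0.757 and 0 CPM in DSS.

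**Figure D5:**
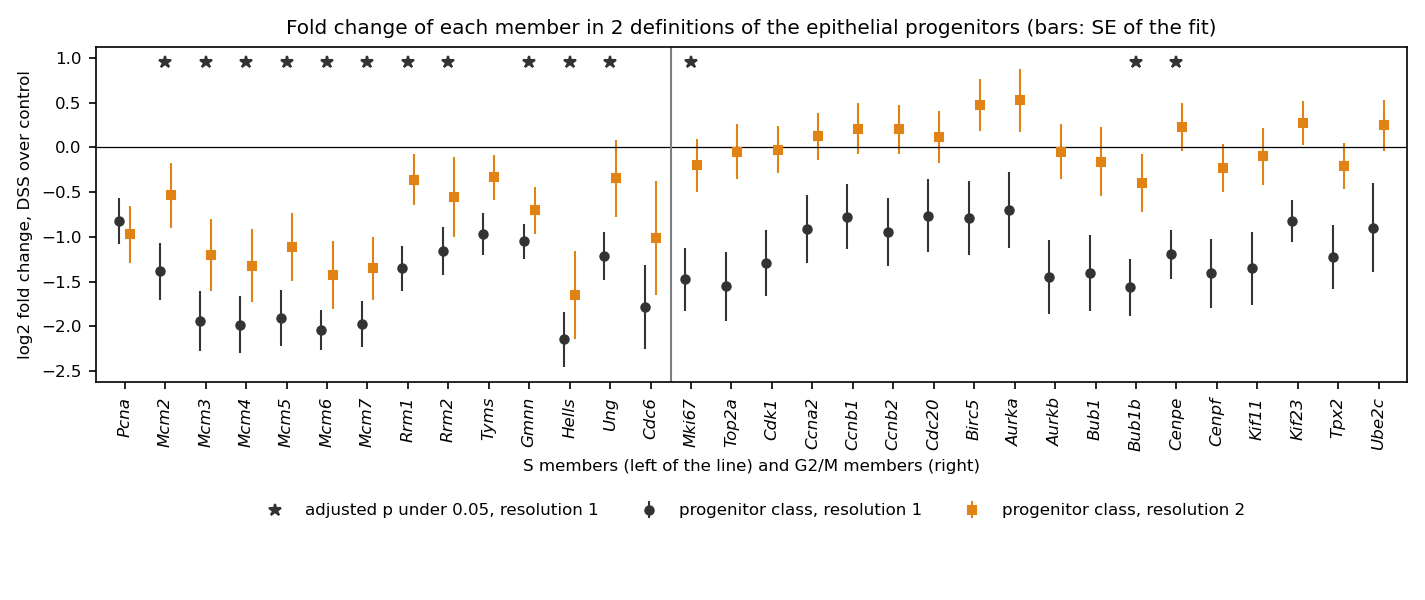
Log2 fold change, DSS over control, of each member in the progenitor-like class (resolution 1, the main clustering) and in the finer Ascl2 and Lgr5 cluster (resolution 2), with bars for the SE of the edgeR fit and stars for an adjusted p under 0.05 in the class. All 14 S members lie below 0 in both, and the median of the 18 G2/M members is -1.21 in the class and 0.05 in the finer cluster.

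Genes of the same pathways beyond the members were counted in the progenitor-like class, where 3.77% of all genes fell and 3.13% rose. Of 44 other S genes, 35 fell and 0 rose, with a median of -1.44; those with the largest changes were the polymerase subunit Pola1 (-2.28), Dscc1 (-2.25), Exo1 (-2.23), Dtl (-2.19) and the primase Prim1 (-2.18). Of 57 other G2/M genes, 10 fell, with a median of -1.21, among them Psrc1 (-2.22), Pimreg (-1.96), Kif15 (-1.89) and Pbk (-1.71). Among 16 drivers of entry into S phase, 4 fell. Cdk6, a partner of D-type cyclins, stood at 122 and 191 CPM in the controls and 22.5 and 27.4 CPM in DSS (-2.52, SE 0.25, edgeR adjusted p = 0.00466). Skp2 (-2.05), Cdk4 (-1.61) and Cdk2 (-1.25) were the others. Among 17 of 18 brakes that could be tested, 2 rose and 1 fell. Cdkn2b, an inhibitor of Cdk4 and Cdk6, rose from 10.2 and 6.20 CPM to 59.3 and 44.8 CPM (2.72, SE 0.35, edgeR adjusted p = 0.00987). Cdkn1a, an inhibitor of cyclin-dependent kinases, rose from 43.3 and 91.2 CPM to 174 and 152 CPM (1.43, edgeR adjusted p = 0.0407), and Trp53 fell by 1.22 (edgeR adjusted p = 0.0183). In the finer Ascl2 and Lgr5 cluster, where 0.913% of all genes passed, the counts were smaller. All 44 other S genes were lower there with a median of -0.84, and 1 passed, Prim1 (-1.53, edgeR adjusted p = 0.0468). Of the 57 other G2/M genes 35 were lower with a median of -0.15, and 0 passed, with 1 at an unadjusted p under 0.05. Of the drivers, 2 passed. Cdk6 stood at 124 and 197 CPM in the controls and at 35.6 and 24.1 CPM in DSS (-2.33, edgeR adjusted p = 0.00235), on 47 and 20 UMIs in DSS. Cdk4 stood at 153, 180, 71.9 and 72.4 CPM (-1.17, edgeR adjusted p = 0.0469). For both, the DSS libraries lay below both controls. Of 17 brakes tested in edgeR 0 passed, with 2 at an unadjusted p under 0.05.

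In goblet-like cells, 32 of 32 members were lower in DSS on average, and 0 passed in edgeR, where 0.0% of 13294 genes passed. Unadjusted p was under 0.05 for 20 members and for 1858 of the 13294 genes, and DESeq2 called 2 members and 1.60% of all genes. The median was -1.07 for S and -0.83 for G2/M members against 0.01 for all genes. Both DSS libraries lay below both controls for 11 of 14 S and 13 of 18 G2/M members, against 28.6% of all genes tested. Mki67 stood at 57.9, 126, 31.6 and 47.1 CPM (-1.03), Hells at 12.7, 31.6, 3.25 and 8.16 CPM (-1.77), and Pcna at 51.0, 94.4, 40.96 and 80.9 CPM (-0.10). For Mki67 and Hells the groups did not overlap, and for Pcna they did. The part of the changed makeup of the class by finer cluster, given above, in these levels was not tested. Of the other lists, 43 of 44 S genes and 56 of 56 tested G2/M genes were lower, with 0 passing. Dut (-1.04), Nasp (-0.49) and Slbp (-0.20) were the most abundant S genes, and Hmgb2 (-0.71), Cks2 (-0.03) and Smc4 (-0.47) the most abundant G2/M genes. Of 15 drivers tested 12 were lower, Cdk6 by -1.41 with Ccnd1 and Ccnd2 at -0.07 and -0.15, and of 17 brakes 11 were higher, with Cdkn1a at 1.59, Btg1 at 0.85 and Btg2 at 0.26. The 105 immune markers summed to 1615 and 3233 CPM in control goblet-like cells and to 9656 and 5787 CPM in DSS cells, and their part was not tested. Over the whole epithelial compartment, 32 of 32 members were lower with a median of -1.16, and 0 passed in edgeR, where 0.0114% of 17603 genes passed. In that compartment unadjusted p was under 0.05 for 21 members and for 6.46% of all genes, and DESeq2 called 5 members and 0.738% of all genes.

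In the 3 immune classes tested no member passed in edgeR. In T or innate lymphoid-like cells 0.0% of 11105 genes passed, 1 member and 2.47% of all genes had an unadjusted p under 0.05, and DESeq2 called 0. Of 14 S members 11 were higher in DSS, with a median of 0.28. Both DSS libraries lay above both controls for 5 of 14, against 6.31% of all genes. Mcm5 stood at 16.9 and 18.8 CPM in the controls and at 31.3 and 37.7 CPM in DSS (1.02, SE 0.35, edgeR adjusted p = 1.00). For G2/M, 14 of 17 tested members were lower, and Mki67 overlapped between groups at 100, 84.4, 64.0 and 89.2 CPM. Of the finer clusters, T-like cells led by Ccl5, Cd7 and Klra7 had S shares of 1.85%, 4.64%, 6.73% and 6.24%, with DSS above control. T-like cells led by Tnfrsf4, Icos and Foxp3 had 11.8% (4 of 34 cells), 0%, 4.84% and 3.44%, and the groups overlapped. Natural killer or innate lymphoid-like cells led by Gzmc and Ncr1 had 0%, 1.82%, 5.62% and 3.85%. The control values there rest on few cells, 29 and 60 before the depth limit. Shares of the other finer clusters of the class are not given here. Of the other lists, 18 of 38 S genes, 24 of 41 G2/M genes, 6 of 13 drivers and 10 of 17 brakes tested were lower, 0 passing. The most abundant were Nasp (0.26), Slbp (0.11) and Atad2 (-0.03), Hmgb2 (0.40), Smc4 (-0.02) and Cenpa (0.14), Ccnd2 (0.34), Ccnd3 (-0.12) and Cdk6 (0.09), and Btg1 (0.06), Btg2 (-0.17) and Cdkn1b (-0.07).

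In mononuclear phagocyte-like cells the median of the S members and that of the G2/M members lay on opposite sides of 0. Of 18 G2/M members 18 were lower in DSS, with a median of -0.82, and both DSS libraries lay below both controls for 15 of 18, against 16.4% of all genes. The S members were split. Of 14 S members 9 were higher, with a median of 0.34, and both DSS libraries lay above both controls for 7, against 10.8% of all genes. For 2 of the 14, both DSS libraries lay below both controls, against 16.4% of all genes. In edgeR 0.0% of 11217 genes passed, 5 members and 2.77% of all genes had an unadjusted p under 0.05, and DESeq2 called 0. Ube2c stood at 73.4 and 90.9 CPM in the controls and 35.3 and 24.2 CPM in DSS (-1.39, SE 0.34, edgeR adjusted p = 1.00). Cdc20 stood at 20.5, 16.0, 6.50 and 2.54 CPM (-1.87, SE 0.56). Mki67 separated less, at 84.4, 192, 85.3 and 82.6 CPM (-0.65), and control 1 lay within the range of DSS. Mcm3 stood at 30.8, 25.1, 46.4 and 44.0 CPM (0.75, SE 0.31), with both DSS libraries above both controls. Among the finer clusters, dendritic-like cells led by Ccl17 and Ccl22 had the highest G2/M shares in every library of the 3 clusters compared, with 13.9%, 13.2%, 7.90% and 6.47% on 36, 76, 405 and 170 cells. Macrophage-like cells led by C1qc and Ms4a7 had G2/M shares of 4.22%, 0.966%, 2.38% and 2.58%, and the groups overlapped. A monocyte or macrophage-like cluster led by Retnla, Chil3 and Lyz1 was a larger part of the class after DSS, with 12.0% and 6.97% of its control and 24.0% and 40.8% of its DSS cells. Its G2/M shares were 0%, 6.90%, 3.24% and 0.833% on 22, 29, 339 and 240 cells, and the groups overlapped. The part of this makeup in the lower G2/M level of the class was not tested. Of the other lists, 29 of 39 S genes were higher and 47 of 51 G2/M genes were lower, and 0 passed. The most abundant of these were Nasp (0.33), Slbp (0.14), Atad2 (-0.07), Hmgb2 (-0.48), Cenpa (-0.10) and Cks2 (-0.50). Of 13 drivers 9 were higher, Ccnd2 (0.54), Ccnd3 (0.39) and Ccnd1 (0.25) among them, and of 17 brakes 10 were lower, with Btg1 at 0.64, Btg2 at -0.29 and Cdkn1a at 0.26.

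Plasma-like cells also showed lower G2/M levels. Of 18 G2/M members 18 were lower in DSS, with a median of -0.85, and both DSS libraries lay below both controls for 17 of 18, against 33.5% of all genes. Of 13 S members tested 10 were lower, with a median of -0.32. In edgeR 0.0% of 10519 genes passed, 5 members and 4.31% of all genes had an unadjusted p under 0.05, and DESeq2 called 0. Cenpf stood at 28.4 and 27.7 CPM in the controls and 10.4 and 8.11 CPM in DSS (-1.25, SE 0.35, edgeR adjusted p = 1.00). Top2a stood at 63.9, 69.5, 27.1 and 34.4 CPM (-0.82, SE 0.30). Mki67 stood at 66.7, 178, 61.0 and 59.5 CPM, and control 1 lay close to the DSS libraries. The finer cluster that held most plasma-like cells, led by Igkv6-17, had G2/M shares of 6.93%, 5.57%, 2.47% and 1.40%. Of the other lists, 28 of 38 S genes and 43 of 47 G2/M genes were lower, with 7 of 14 drivers and 8 of 17 brakes, and 0 passed. The most abundant were Slbp (0.08), Nasp (0.05), Rfc2 (0.10), Hmgb2 (-0.25), Smc4 (-0.33) and Cks2 (-0.57).

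Lower G2/M levels in DSS were also found in some classes with few G2/M-positive cells, but not in all. The summed G2/M level of fibroblast-like cells was 87.3 and 74.7 CPM in the controls and 42.9 and 52.9 CPM in DSS. In control 1, control 2, DSS 1 and DSS 2, that of glia-like cells was 252, 56.9, 18.7 and 29.7 CPM. These glia-like values rest on only 64, 7, 7 and 5 UMIs. The groups overlapped in smooth muscle or pericyte-like cells (114, 55.9, 20.4 and 61.9 CPM) and in colonocyte-like cells (41.6, 65.4, 39.4 and 80.6 CPM). For comparison, the summed G2/M level was 1327, 1702, 354 and 890 CPM in progenitor-like, 633, 773, 449 and 329 CPM in mononuclear phagocyte-like and 455, 460, 206 and 218 CPM in plasma-like cells. The part of free RNA in the values of immune and stromal cells was not tested. The summed S level of fibroblast-like cells overlapped between groups, at 165, 225, 171 and 263 CPM.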

How the data were processed

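Single-cell libraries of the mid-colon, 2 from control and 2 from DSS mice, were analysed. The deposited matrices hold raw UMI counts by gene and barcode, per the file headers. Per the submitters' processing notes, Cell Ranger 6.1.1 and build GRCm38 were used. How the counting treated strand is not given in the sources used here. Members and gene lists were chosen with earlier results of these data known.

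Cells were kept with at least 500 UMIs, 250 genes and at most 25% mitochondrial UMIs. Scrublet in scanpy 1.11.5 marked 3.03% and 4.69% of control cells and 3.85% and 5.38% of DSS cells as doublets, which were removed. Clustering with leidenalg 0.10.2 at resolution 1 left out 360 genes, 325 by cell cycle list or histone name (members included) and 35 only for their correlation with the summed members, among them the crypt genes Clca3b, a progenitor marker, Cldn2 and Cftr. It gave 30 clusters (46 at resolution 2, the finer clustering). Clusters were named from marker lists. Pairs of related types were merged into 3 classes, and clusters with leading genes of another kind were left unnamed, after the clusters had been seen.

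Cells were thinned to 1500 UMIs without replacement (seed 1). Numbers of positive cells, with all eligible cells of the class as offset, and UMIs summed per library and class entered edgeR's quasi-likelihood F test (two-sided, edgeR 4.0.16, R 4.3.3, with TMM and filterByExpr for genes), with Benjamini-Hochberg adjustment and a threshold of 0.05. Classes needed at least 30 cells in each library. DESeq2 1.42.0 was an alternative. An exact permutation test of 2 libraries against 2 cannot reach the threshold and was not used. On simulated progenitor counts with 200 changed genes, the gene fit recovered 92.5% of genes changed 4-fold with 5 false calls among 13725 genes. The simulated libraries were independent and had a single fixed dispersion. The figures therefore check the fit and do not give error rates of the calls above. Named genes of other lists were those that passed, by size of change (at most 5 a list), or otherwise the 3 with the highest mean CPM. A gene that this rule names is not reported here. The printed promoters are those of the 2 members of each part with the smallest p in progenitor-like cells that hold the words and lie outside the annotated gene. This choice was made after the values were seen.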

Additional observations from a re-analysis of the deposited data

Results flagged for a closer look

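The S-positive share after thinning was compared in 5 classes. In each, both DSS libraries lay above, or both lay below, the control libraries, and the direction differed between classes. The mean of DSS minus control was -11.17 percentage points in progenitor-like, -1.333 in goblet-like and -0.8756 in plasma-like cells, and 1.337 in T or innate lymphoid-like and 0.7998 in mononuclear phagocyte-like cells. In the G2/M-positive share it was -10.59 points in progenitor-like, -1.67 in mononuclear phagocyte-like and -4.363 in plasma-like cells, and 0.2076 in T or innate lymphoid-like cells. These opposite directions drew attention, and the difference between the classes was not tested. The G2/M value of T or innate lymphoid-like cells rested on 6, 8, 35 and 26 positive cells in control 1, control 2, DSS 1 and DSS 2. Unthinned, their G2/M shares were 3.06%, 2.17%, 3.49% and 2.76%, and the groups overlapped. The unthinned G2/M shares of mononuclear phagocyte-like cells overlapped as well. The thinned S shares rested on 16, 13, 4 and 3 positive goblet-like and 2, 8, 12 and 6 positive plasma-like cells. Without thinning, S shares in control 1, control 2, DSS 1 and DSS 2 were 41.5%, 47.7%, 30.9% and 47.6% in goblet-like cells. In plasma-like cells they were 11.1%, 13.02%, 13.6% and 7.14%. The groups then overlapped in both classes, and in the other classes named here the S shares did not overlap. Depth differed between these libraries too. Median depths were 2541, 1514, 3306 and 2305.5 UMIs in T or innate lymphoid-like cells. In mononuclear phagocyte-like cells they were 4493, 2224, 6736 and 4656 UMIs. The part of depth in the unthinned shares was not tested.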

How the results depend on the processing

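The S share of progenitor-like cells (log2 fold change -2.24) was below 0 under every alternative run. In edgeR it lost its call with at least 2 members (-2.12), at least 5 members (-1.22), no thinning (-0.53), thinning to 1000 UMIs (-2.45) or 3000 UMIs (-2.10), at most 10% mitochondrial UMIs (-2.11), cell cycle genes kept in the clustering (-2.08) and resolution 2 (-1.85). It ranged from -2.65 to -1.70 with 1 library left out, and lost its call without control 2 (-1.70), DSS 1 (-2.17) or DSS 2 (-2.35). The epithelial S share (-1.94) lost its call under the same settings except the mitochondrial limit, with -1.44, -1.30, -0.087, -2.45, -1.86, -1.99 and -2.57 in that order, and when any 1 library was left out (-2.23 to -1.57). The immune S share changed sign with at least 5 members (-0.041) and 3000 UMIs (-0.025). The T or innate lymphoid-like G2/M share changed sign with at least 2 (-0.0015) or 5 members (-0.27) and with 1000 (-0.28) or 3000 UMIs (-0.22). The stromal share changed sign for S without DSS 2 (-0.24 to 1.26 over left-out libraries) and for G2/M without control 1 (-1.59 to 0.11). The cause was not tested.

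The 14 members called in progenitor-like cells (6.90% of all genes called in either direction) became 31 with no filter on low counts (8.82% of all genes), 24 with DESeq2 (5.51%) and 0 at resolution 2 (0.913%). They became 8 without control 1 (3.14%), 7 without control 2 (3.12%) and 27 without DSS 2 (9.21%), the range over left-out libraries being 7 to 27. At resolution 2, Aurka (0.52), Birc5 (0.47), Ccna2 (0.12), Ccnb1 (0.21), Ccnb2 (0.20), Cdc20 (0.12), Cenpe (0.23), Kif23 (0.27) and Ube2c (0.25) changed sign. In goblet-like cells the count of 0 became 13 with no filter (4.97% of all genes), 2 with DESeq2 (1.60%) and 0 to 1 with 1 library left out. In the epithelial compartment it became 11 with no filter (1.66%) and 5 with DESeq2 (0.738%).

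Libraries of the 2 groups share only a number in the labels, and same-numbered libraries deviated together with correlations of 0.270 to 0.673 on 2 pairs. With the replicate block, 30 members were called in progenitor-like (18.6% of all genes), 19 in goblet-like (10.8%) and 2 in mononuclear phagocyte-like cells (0.785%), and the plasma-like G2/M share passed (-1.55, edgeR adjusted p = 0.0325). The values of the finer progenitor-like cluster rest on 71 and 53 DSS cells.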
